A study of Homo sapiens with 25 samples.

Results

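Retinoic acid (RA) at 1 µM was compared with its solvent DMSO in NB4 cells, an established human line of acute promyelocytic leukemia, through the 3 methylation states of lysine 4 of histone H3 (H3K4me1, H3K4me2 and H3K4me3). The members are the peak lists of the 3 marks in both conditions, 6 of the 25 samples in the series, with 256839 of its 918839 peaks. Both groups received their treatment for 24 h. There was 1 library for each mark and condition, hence no replicate error, and every value is a description of single libraries with no test. Peaks were compared within a mark by an overlap of at least 1 base, and the 6 lists were then merged into 69328 joined regions to see in how many of the 3 marks each region changed. The series also holds lists for MC_2580, an inhibitor of the demethylase LSD1, for a lower RA dose of 0.01 µM and for that dose together with MC_2580 (the combination), which are set beside the results.

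Lysine 4 of H3 is methylated stepwise by enzymes of the MLL/SET1 family. H3K4me1 is typical of enhancers and of the flanks of promoters, H3K4me3 of active promoters, and H3K4me2 of both, while LSD1 removes mono- and dimethylation but not trimethylation. NB4 cells carry the PML-RARA fusion, which represses retinoid target genes until RA binds it, and RA at high dose drives such cells toward granulocytes. Whether the lists carry promyelocyte genes was not checked, since gene positions on hg18, the build of the lists, were not used here. Regions are therefore given by position only.

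The RA lists of all 3 marks were longer than those of DMSO, but for H3K4me1 and H3K4me2 they covered fewer bases. H3K4me1 had 57630 peaks over 203 Mb in DMSO and 64642 over 179 Mb with RA. H3K4me2 had 40598 peaks over 56.9 Mb and 46010 over 52.2 Mb, and H3K4me3 had 21688 over 63.9 Mb and 26271 over 85.3 Mb. The DMSO list of H3K4me3 stood apart, as the shortest of the 5 lists of that mark and the one covering the fewest bases. The 4 treated H3K4me3 lists held 26271 to 29872 peaks over 84.3 to 101 Mb. With 1 DMSO library, an increase with RA and a sparse DMSO list cannot be told apart for this mark. The lists carry no read numbers, and depth is therefore unknown. Bracketed ranges are 95% exact (Clopper-Pearson) binomial intervals, which reflect counting error and nothing else.

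H3K4me3 showed the most one-sided change of the 3 marks. It gained 6716 peaks with RA that had no DMSO peak, 25.6% of the RA list, and lost 1328, or 6.12% of the DMSO list, a log2 ratio of gained to lost peaks of 2.34. H3K4me2 gained 10184 peaks (22.1%) and lost 7919 (19.5%), a log2 ratio of 0.36. H3K4me1 gained 9200 (14.2%) and lost 8081 (14%), a log2 ratio of 0.19. The H3K4me1 ratio took the opposite sign when every list was held to a minimum score of 100 (-0.012) or when the lists of a mark were cut to equal length (-0.86), and the H3K4me2 ratio did so at equal length (-0.38). At equal length the H3K4me3 ratio was 0.47. When a gain also had to be absent from the MC_2580 list and a loss present in it, the H3K4me3 ratio was 1.28, with 2469 gains and 1015 losses.

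**Figure D1:**
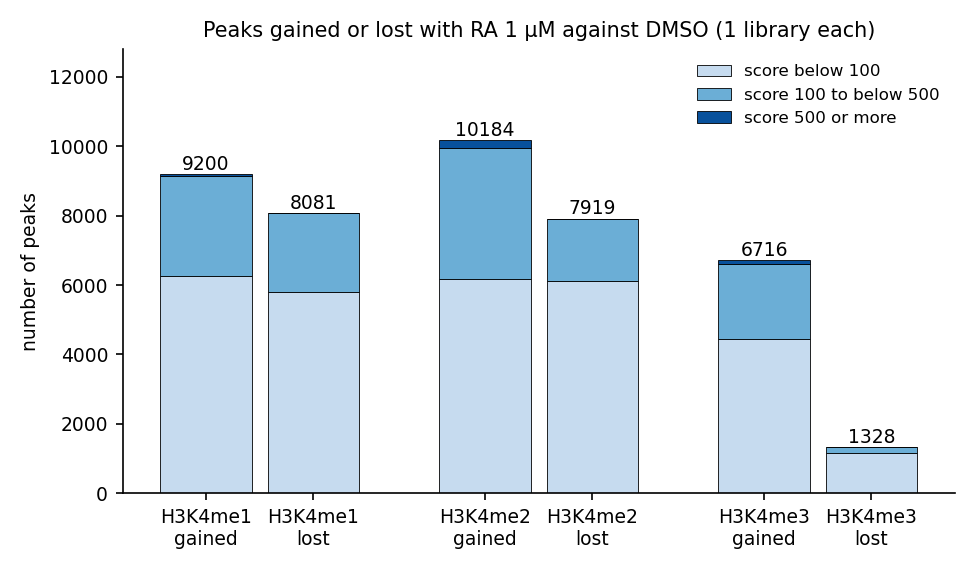
Number of peaks (vertical axis) gained or lost with RA 1 µM for each mark, stacked by the caller's score; each bar rests on 1 library per condition. H3K4me3 has 6716 gains against 1328 losses, and scores of 500 or more are rare in every bar.

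Most gained and lost peaks were weak calls. The score is the authors' caller's value per peak, on a log scale of its p-value with a floor of 50. Scores pile up at 3100 and reach 3233.06 in each of the 6 lists, and whether the higher values mean stronger peaks is not known here. Scores of different libraries are not on a matched scale: where they stand side by side they show that a peak was called and give its own list's value, not the size of a change. Gained H3K4me3 peaks had a median score of 80.0, against 2052 for RA peaks shared with DMSO. For H3K4me2 the medians were 85.2 and 840, and for H3K4me1 77.9 and 279. In the weakest quartile of the RA list, 74.0% of H3K4me3 peaks, 53.4% of H3K4me2 peaks and 39.7% of H3K4me1 peaks were gained. In the strongest quartile the shares were 0.15%, 0.017% and 0.34%.

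Gains with high scores were few, and losses with high scores fewer still. At a score of 500 or more, the RA lists held 65 gained H3K4me1 peaks, 239 of H3K4me2 and 98 of H3K4me3. The DMSO lists held 3, 5 and 5 lost peaks at that score, on a scale that is not matched between libraries. No DMSO peak in the strongest quartile of the H3K4me2 list was lost, 0 of 10150, which allows a share of up to 0.036%. The other marks were alike, with 0 of 5422 for H3K4me3 (up to 0.068%) and 1 of 14408 for H3K4me1. Regions that gained H3K4me3 and neither of the other marks include some that held both of those marks in both conditions. On chromosome 5 from 115393504 to 115404179, H3K4me1 and H3K4me2 scored 565 and 80.1 in DMSO, no H3K4me3 was called, and RA gave an H3K4me3 peak of 3100 over 8786 bases. It is the first by position of 6 regions of that class tied at 3100. On chromosome 9 from 131550132 to 131556368, another of the 6, H3K4me1 covered 1325 bases in DMSO and 6177 with RA. H3K4me2 there covered 786 and 3562 bases, and H3K4me3 went from none to 6237. H3K27ac, the acetylation typical of active elements, had no peak there in DMSO or MC_2580 and a score of 3100 with either RA dose and in the combination.

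The marks differed in where gains fell. Gained H3K4me1 peaks lay mostly on chromatin free of the other marks: 87.5% met no H3K4me2 peak and 92.4% no H3K4me3 peak in either condition. For H3K4me1 peaks shared with DMSO these shares were 41.5% and 51.4%. Of gained H3K4me2 peaks, 70.3% (69.4 to 71.1) lay on an H3K4me1 peak called in both conditions, against 89.6% of the H3K4me2 peaks shared with DMSO. Of gained H3K4me3 peaks, 52.1% lay on H3K4me1 called in both conditions, against 89.9% of shared ones, and 41.3% on none. Lost H3K4me1 peaks met no H3K4me2 in either condition in 86.5%, against 40.3% of the DMSO peaks retained with RA. Lost H3K4me3 peaks lay on H3K4me1 of both in 52.5%, against 89.4% of retained ones. Lost H3K4me2 peaks lay on H3K4me3 of both conditions in 37.1%, against 13.1% of gained ones and 67.2% of retained ones. Lost H3K4me3 peaks lay on H3K4me2 of both in 41.2%, against 24.3% of gained ones and 85.1% of retained ones. Gained and lost peaks of each mark were narrower than shared or retained ones. For H3K4me1 the median widths were 1229 bases for gained and 2216 for shared peaks, and 1467 for lost and 2814 for retained ones. The part of width and score in these shares was not tested.

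Gains of the 3 marks also differed in their distance from chromatin already marked. The median distance from a gained peak to the nearest DMSO peak of the same mark was 2569 bases for H3K4me2, 5913 for H3K4me1 and 18366 for H3K4me3. Within 5 kb lay 61.5%, 45.7% and 24.3% of the gains. For lost peaks the distances to the nearest RA peak were 2815, 5306 and 13366 bases, in the same order. Lists of fewer peaks have wider spacing, which was not corrected for. H3K4me3 gains outnumbered losses on each of 23 chromosomes, with log2 ratios of 1.58 to 3.13. For H3K4me2 this held on 17 chromosomes and for H3K4me1 on 15.

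The smaller coverage of H3K4me1 with RA came from peaks called in both conditions, not from lost peaks. Gained and lost H3K4me1 peaks nearly balanced in bases, 12.6 against 12.8 Mb. Shared peaks covered 23.9 Mb less with RA than in DMSO (190 against 166 Mb). H3K4me2 behaved alike, with 4.75 Mb gained, 4.85 Mb lost, and a decrease from 52.0 to 47.5 Mb in shared peaks. H3K4me3 went the other way in both terms, with 11.3 Mb gained against 1.69 Mb lost and an increase from 62.2 to 73.9 Mb in shared peaks.

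Peaks that matched a single peak of the other list showed the same directions. Among 39746 such pairs of H3K4me1, 78.1% were narrower with RA, and the median width ratio was 0.86. Among 22936 pairs of H3K4me2, 65.1% were narrower, with a median ratio of 0.93. Among 18109 pairs of H3K4me3, 83.4% were wider, with a median ratio of 1.14. The directions were the same in each score quartile in DMSO, though barely so in the weakest quartile of H3K4me2. From the weakest to the strongest quartile, 66.5%, 78.4%, 82.3% and 81.3% of H3K4me1 pairs were narrower. For H3K4me3, 85.6%, 78.0%, 83.8% and 86.6% were wider. For H3K4me2, 51.0%, 67.5%, 68.2% and 66.8% were narrower. In its weakest quartile 48.8% of pairs were wider, and the median ratio was 0.99.

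The same DMSO libraries serve each treatment, so the width changes are set side by side. H3K4me1 pairs were narrower in 83.4% with RA at 0.01 µM, 62.6% in the combination and 44.1% with MC_2580. H3K4me3 pairs were wider in 92.3%, 78.0% and 96.5%. Thus H3K4me3 was wider than in DMSO in all 4 treated libraries, RA at 1 µM included, while H3K4me1 pairs were mostly narrower in the 3 libraries that received RA and mostly wider with MC_2580 (55.8%). The H3K4me3 sample of the combination is titled as RA at 1 µM, while its treatment field gives 0.01 µM, which bears on each H3K4me3 value of the combination.

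**Figure D2:**
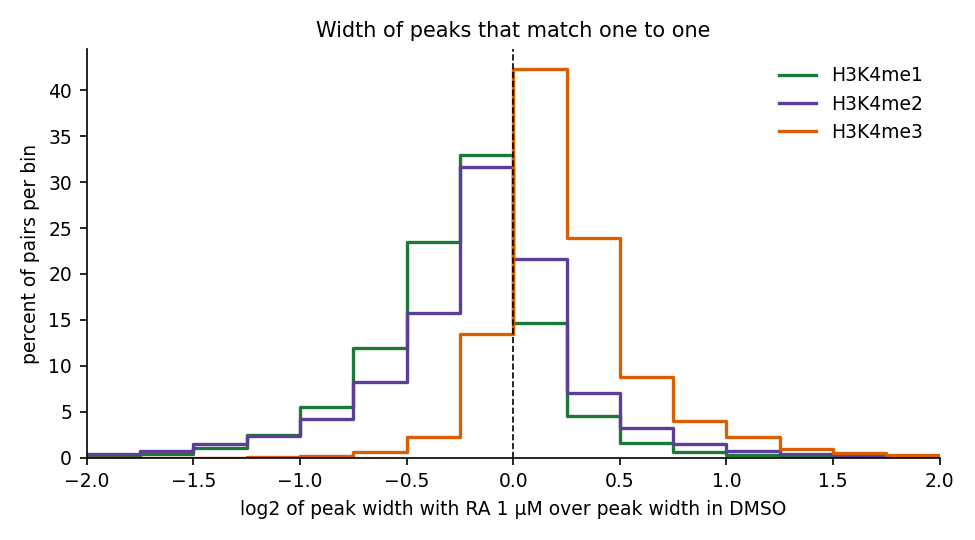
Percent of matched peak pairs per bin (vertical axis) against the log2 of the width with RA 1 µM over the width in DMSO (horizontal axis), for the 3 marks; the dashed line marks equal width. H3K4me1 and H3K4me2 lie mostly left of the line (78.1% and 65.1% narrower) and H3K4me3 mostly right of it (83.4% wider).

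Wide peaks of H3K4me1 and H3K4me2 also broke into pieces. Of the DMSO peaks of H3K4me1, 6782 (11.8%) overlapped 2 or more RA peaks, in up to 9 pieces, while 2056 RA peaks (3.18%) fused 2 or more DMSO peaks. The split peaks had a median width of 6010 bases in DMSO, against 2573 for the others that were kept. For H3K4me2, 5335 DMSO peaks (13.1%) were split and 2885 RA peaks (6.27%) were fused. H3K4me3 again ran the other way, with 273 split (1.26%) and 985 fused (3.75%). The 8059 gaps opened in H3K4me1 peaks had a median length of 205 bases, and 45.6% of them lay on an H3K4me3 peak with RA, against 40.2% on an H3K4me3 peak in DMSO, whose list covers fewer bases (63.9 against 85.3 Mb). For H3K4me2 the shares of gaps were 33.5% and 34.5%.

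Read base by base, H3K4me1 without the other marks covered less with RA, and each set that held H3K4me3 but not all 3 marks covered more. Bases with H3K4me1 only covered 135 Mb in DMSO and 102 Mb with RA. Bases with H3K4me1 and H3K4me3 but no H3K4me2 covered 16.1 and 32.1 Mb (ratio 1.99). Bases with H3K4me3 only covered 4.08 and 12.5 Mb (ratio 3.06), and those with H3K4me2 and H3K4me3 2.69 and 4.56 Mb (ratio 1.70). Bases with all 3 marks covered 41.0 and 36.1 Mb (ratio 0.88), and those with H3K4me1 and H3K4me2 only 10.6 and 8.60 Mb.

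The conversions behind these totals were of a few kinds. Of bases with H3K4me1 only in DMSO, 58.9% kept that state, 28.5% (38.5 Mb) carried no mark with RA, and 7.93% (10.7 Mb) added H3K4me3 alone. Of bases with all 3 marks in DMSO, 74.0% kept them and 17.5% (7.18 Mb) lacked only H3K4me2 with RA. Of the H3K4me3-only bases with RA, 53.9% carried no mark in DMSO and 22.3% were H3K4me3-only there already. A further 11.9% carried H3K4me1 only in DMSO, and 8.24% carried H3K4me1 with H3K4me3. In all, 240 Mb was covered in either condition, and 55.1% of it had the same set of marks in both.

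H3K4me3-only bases covered more than in DMSO in every treated condition. They spanned 15.9 Mb with MC_2580, 18.4 Mb with RA at 0.01 µM and 8.96 Mb in the combination, against 12.5 Mb with RA at 1 µM and 4.08 Mb in DMSO. Bases with H3K4me1 and H3K4me3 covered 34.1, 32.2 and 28.0 Mb in those 3 conditions. Bases with H3K4me1 only covered 113, 85.8 and 128 Mb, so each treated library set lay below the 135 Mb of DMSO. As the DMSO lists enter every comparison, their part in these shifts cannot be told apart from that of the treatments.

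**Figure D3:**
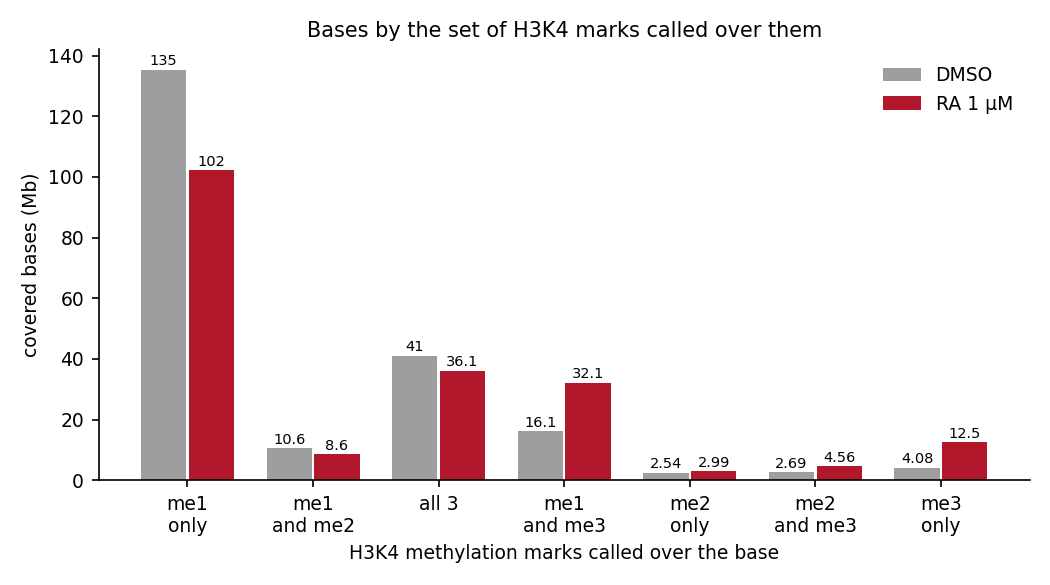
Covered bases in Mb (vertical axis) by the set of H3K4 marks called over them (horizontal axis), in DMSO and with RA 1 µM, 1 library per mark and condition. H3K4me1-only bases go from 135 to 102 Mb, bases with H3K4me1 and H3K4me3 from 16.1 to 32.1 Mb and H3K4me3-only bases from 4.08 to 12.5 Mb.

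Joined across marks, regions changed mostly in 1 methylation state. A mark counted as gained in a region called only with RA, lost where called only in DMSO and held where called in both. Joint gains inside a wide region that already held either mark are therefore not counted as joint. Peak by peak, 1473 of 10184 gained H3K4me2 peaks met H3K4me3 with RA and none in DMSO. Of 6716 gained H3K4me3 peaks, 375 met H3K4me2 with RA and none in DMSO. In both counts the peak met can be one that is shared with DMSO and reaches further with RA. Neither is therefore a count of joint gains. Of the 69328 joined regions, 39480 (56.9%) had no mark gained or lost. There were 18311 that gained a mark (26.4%), of which 17408 gained 1 (25.1% of all regions), 873 gained 2 (1.26%) and 30 gained all 3 (0.0433%). There were 12283 that lost a mark (17.7%), of which 12030 lost 1 (17.4%), 253 lost 2 (0.365%) and 0 lost all 3 (0%), which allows up to 0.030% of the losing regions. Gains in 2 or 3 marks were 4.93% (4.62 to 5.26) of gaining regions, and losses in 2 or 3 marks 2.06% (1.82 to 2.33) of losing regions. With the lists cut to equal length the shares were 4.01% and 3.09%, with 16 regions gaining and 3 losing all 3 marks.

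Regions differed by the set of marks they carried in DMSO. Counted as joined regions, those with all 3 marks most often kept their set: 15236 of 16355 (93.2%) held all 3 with RA. Of these 16355, 0 lost all of them, which allows up to 0.023%. Regions that held all 3 were wide, with a median of 5889 bases, against 2331 where H3K4me1 alone was held. In a wide region any peak of a mark in both conditions counts as held. Base by base, the share that kept all 3 marks was slightly below that for H3K4me1 with H3K4me3. The part of width was not tested. Of 27640 regions with H3K4me1 only, 63.2% stayed so, 24.6% had no mark with RA, 7.31% added H3K4me2, 3.13% added H3K4me3 and 0.854% (236 regions) added both. Of 6703 regions with H3K4me1 and H3K4me2, 52.4% stayed so. In this set 17.0% (1140 regions) added H3K4me3 and thereby reached all 3 marks, whereas 19.4% (1298) lost H3K4me2 and returned to H3K4me1 only. A further 333 regions of the set (4.97%) exchanged H3K4me2 for H3K4me3. Of 1661 regions with H3K4me3 only, 66.1% stayed so and 28.6% had no mark with RA.

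Steps up and down the series of marks were unequal at the H3K4me3 end. From H3K4me1 with H3K4me2 to all 3 marks went 1140 regions, and the reverse step was taken by 327, or 2.00% of the regions with all 3 marks in DMSO, and these counts too rest on the short DMSO list of H3K4me3. From H3K4me1 only to H3K4me1 with H3K4me2 went 2021 regions, against 1298 in reverse. From no mark to H3K4me1 only went 7812 regions, against 6802 in reverse. Regions free of marks in DMSO acquired H3K4me1 only in 61.8% of 12646 cases, H3K4me3 only in 20.7%, H3K4me2 only in 12.7% and all 3 marks in 0.237%.

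Gains in a pair of marks had 3 forms. H3K4me1 and H3K4me2 were gained together in 418 regions, 98.1% of them with no H3K4me3 in either condition. H3K4me2 and H3K4me3 were gained together in 273 regions, and in 86.4% of these H3K4me1 was held. H3K4me1 and H3K4me3 were gained together in 182 regions, 70.9% of them with no H3K4me2. For losses the numbers were 139, 79 and 35 in the same order, and in 88.6% of the 79 regions H3K4me1 was held.

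Examples were taken from the top of a ranking by the lower of the scores of the changed marks. In the highest-ranked gain of H3K4me2 with H3K4me3, on chromosome 6 from 30913014 to 30921914, H3K4me1 covered 4259 bases in DMSO and 8240 with RA. Neither H3K4me2 nor H3K4me3 was called there in DMSO, and with RA they scored 1213 and 2176 over 1651 and 4986 bases. Its H3K27ac peak scored 52.7 in DMSO, near the floor, and 3100 with RA. On chromosome 20 from 17770944 to 17779930, H3K4me1 went from 2236 to 8987 bases, H3K4me2 from none to 4570 and H3K4me3 from none to 7468. In that region MC_2580 had no peak of any of the 4 histone marks, while RA at 0.01 µM and the combination had all 4.

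The top gain of H3K4me1 with H3K4me2, on chromosome 11 from 120331068 to 120334458, scored 630 and 558 with RA, with an H3K27ac score of 2450. DMSO and MC_2580 had no histone peak there. The top gain of H3K4me1 with H3K4me3, on chromosome 7 from 43596963 to 43602604, scored 367 and 242, with no H3K27ac and no H3K4me2 in any condition. H3K4me1 was called there with MC_2580 too, at 150.

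Joint losses were fewer than joint gains. LSD1 had a DMSO peak in 39 of the 253 regions that lost 2 marks (15.4%), near the 15.1% of all joined regions. By pair, it had one in 5 of 139 regions for H3K4me1 with H3K4me2 and in 2 of 35 for H3K4me1 with H3K4me3. For H3K4me2 with H3K4me3 the number was 32 of 79. The top loss of H3K4me1 with H3K4me2, on chromosome 1 from 7603441 to 7605703, scored 216 and 175 in DMSO, and both marks were called with MC_2580 and in the combination but with neither RA dose alone. The top loss of H3K4me2 with H3K4me3 lay in a wide H3K4me1 region on chromosome 20 from 47831000 to 47846766, where H3K4me1 covered 15055 bases in DMSO and 15673 with RA. H3K4me2 (score 458) and H3K4me3 (178) were called in DMSO and not with RA at 1 µM, and LSD1 had a DMSO peak of 713. Both marks were called there at the lower RA dose (77.7 and 80.0) and in the combination (139 and 62.8). On chromosome 17 from 70138561 to 70141897, H3K4me2 and H3K4me3 scored 367 and 98.5 in DMSO and were absent with both RA doses. With MC_2580 they scored 1029 and 717 there and in the combination 1040 and 331, and LSD1 (2206 in DMSO) and GFI1 (501), a repressor that recruits LSD1, were both called.

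In 746 regions (1.08%) a mark was lost while another was gained. The most frequent exchange was a loss of H3K4me2 with a gain of H3K4me3, in 360 regions, against 18 with the opposite exchange, and both counts rest on the short DMSO list of H3K4me3. H3K4me1 was lost with a gain of H3K4me2 in 195 regions and with a gain of H3K4me3 in 118, and the opposite exchanges numbered 51 and 21. In the top-ranked exchange, on chromosome 14 from 90543705 to 90549346, H3K4me1 was held (1306 in DMSO, 1281 with RA), H3K4me2 of 210 was lost over 1893 bases and H3K4me3 of 310 was gained over 1342 bases. The 3 other treated libraries also called H3K4me3 in that region, and all 3 called H3K4me2 as well.

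The 30 regions that gained all 3 marks lay on 17 chromosomes and were 589 to 6937 bases wide, with a median of 2500. Their H3K4me1 peaks had a median score of 194.6 with RA, against 77.0 in regions that gained H3K4me1 alone. The medians for H3K4me2 were 115.3 and 85.3, and for H3K4me3 128.9 and 78.9. In 11 of the 30 all 3 scores reached 100, and the lowest of the 3 scores ranged from 50.1 to 197.5. H3K4me1 was the widest of the 3 marks in 22 regions and H3K4me3 in 8, and in 16 the H3K4me3 peak lay inside the H3K4me1 peak.

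Of the 30 regions, 6 lay on chromosome 10, and 4 of these lay within 125761461 to 125845123. In the highest-ranked, from 125842984 to 125845123, H3K4me1, H3K4me2 and H3K4me3 scored 202, 595 and 198 with RA at 1 µM. At the lower dose they scored 55.0, 183 and 236, and in the combination 663, 966 and 169, while DMSO and MC_2580 had no peak of any of them. In the second of the 4 by rank, from 125822489 to 125825861, the scores with RA at 1 µM were 781, 418 and 150, and H3K27ac scored 2503. Neither region had an LSD1 or GFI1 peak.

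The surroundings gained peaks of all 3 marks, in a window chosen after its values were seen. Between 125700001 and 125900000 on chromosome 10, H3K4me1 peaks numbered 3 in DMSO and 15 with RA at 1 µM, with 5 for MC_2580, 12 for the lower RA dose and 12 for the combination. H3K4me2 peaks numbered 2, 18, 3, 11 and 21 in the same order, and H3K4me3 peaks 0, 11, 1, 10 and 11. H3K27ac covered 0 kb in DMSO and with MC_2580, and 113 kb with RA at 1 µM, 99.3 kb at the lower dose and 117 kb in the combination. LSD1 had 1 peak in the window in DMSO (score 948) and 1 with MC_2580 (636), and GFI1 had 1 (392). The window held 18 joined regions, of which 13 gained H3K4me1, 8 gained H3K4me2 and 8 gained H3K4me3, and none lost a mark. The 2 regions that already carried H3K4me1 and H3K4me2 in DMSO gained H3K4me3.

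The ranking's other 3-mark gains differed in which mark was widest. On chromosome 16 from 65022943 to 65029879, H3K4me1 covered the whole 6937 bases with RA at a score of 2136, H3K4me2 2070 bases at 1187 and H3K4me3 2471 bases at 134. On chromosome 17 from 74484307 to 74488294 the scores were 153, 414 and 363, and an H3K27ac peak was called in DMSO (122) as well as with RA (617). On chromosome 7 from 73827910 to 73828498 the marks scored 123, 293 and 1215 over 589 bases in all, and no H3K27ac was called with RA at 1 µM. At that site H3K4me3 was the widest mark and H3K4me1 covered 526 bases.

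MC_2580 called all 3 marks in 3 of the 30 regions and none of the marks in 18. RA at 0.01 µM called all 3 in 12 and the combination in 16, and 10 regions had all 3 in both. H3K4me1 was called in 29 of 30 regions in the combination, in 24 at the lower RA dose and in 9 after MC_2580. H3K4me3 was called in 22, 26 and 7. For comparison, of 5186 regions that gained H3K4me3 alone, 64.7% had it with MC_2580, 69.5% with RA at 0.01 µM and 53.7% in the combination. Of 8274 regions that gained H3K4me1 alone, 22.9% had it with MC_2580, 48.6% with RA at 0.01 µM and 73.9% in the combination. These lists are each compared with the same DMSO lists.

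**Figure D4:**
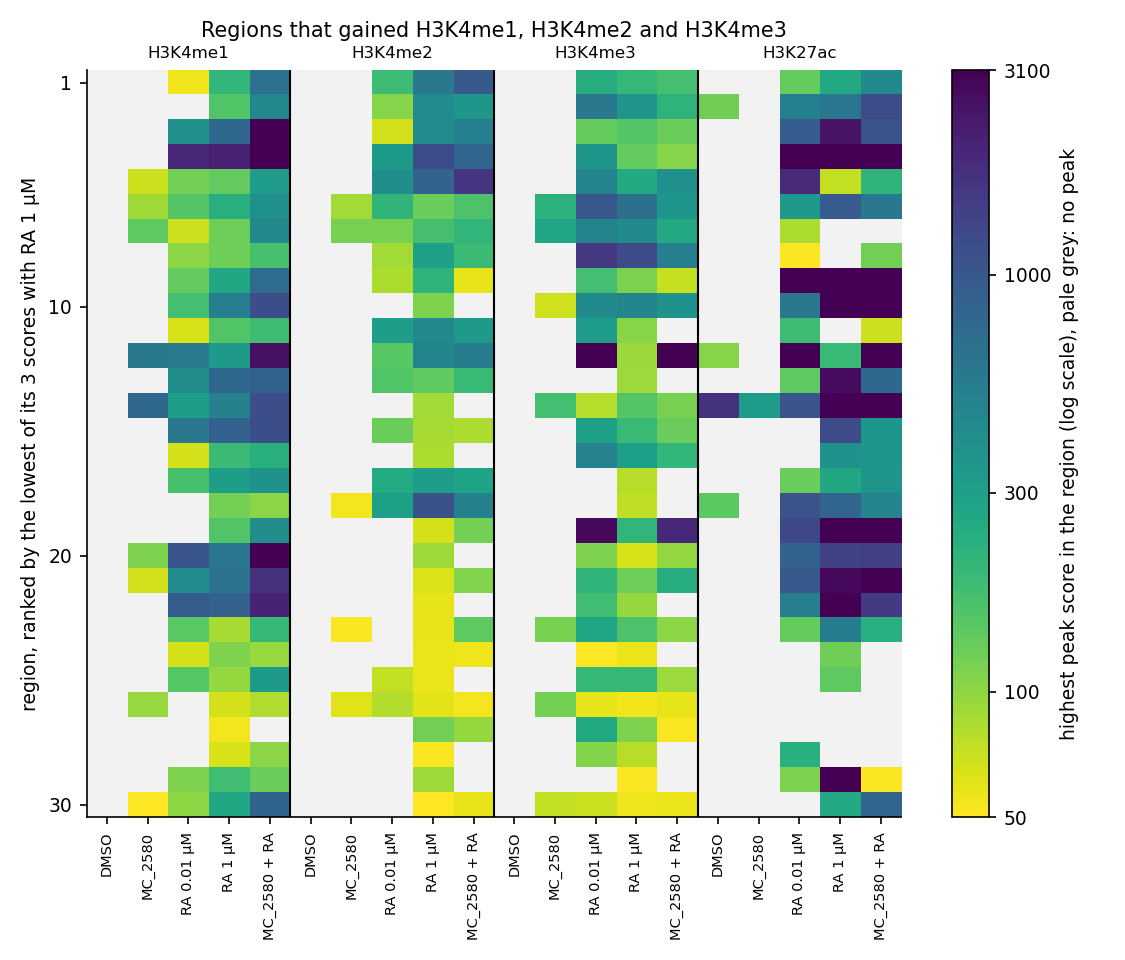
Highest peak score (colour, log scale; pale grey where no peak was called) in the 30 regions that gained all 3 marks (rows, ranked by the lowest of the 3 scores with RA 1 µM) in the 5 libraries of each histone mark (columns). The DMSO columns of the 3 methylation marks are empty by the way the regions were chosen; MC_2580 has all 3 marks in 3 regions and RA 0.01 µM in 12.

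Counted by the same rule against the same DMSO lists, MC_2580 had 15591, 1120 and 24 regions that gained 1, 2 and 3 marks. RA at 0.01 µM had 15119, 698 and 30, and the combination 23094, 1605 and 71. The numbers for RA at 1 µM were 17408, 873 and 30. These comparisons had 64430, 67464, 73504 and 69328 joined regions, in the order of the text. Gains in 2 or 3 marks were 6.84% of gaining regions with MC_2580 and 4.59% with RA at 0.01 µM. The share was 6.77% in the combination and 4.93% with RA at 1 µM, so it was largest with MC_2580. Regions that lost 1, 2 and 3 marks numbered 9658, 111 and 0 with MC_2580, 14409, 403 and 1 with RA at 0.01 µM, and 7998, 117 and 1 in the combination. Losses in 2 or 3 marks were 1.14%, 2.73% and 1.45% of losing regions in these 3 comparisons, against 2.06% with RA at 1 µM. Losses in all 3 marks were at most 1 region in each treatment.

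H3K27ac, which the choice of regions did not use, was called more often with RA the more H3K4 marks a region gained. Its RA list is also the longer, with 38808 peaks against 32789 in DMSO. The share of regions with an H3K27ac peak went from 18.8% in DMSO to 33.7% (33.0 to 34.4) with RA where 1 mark was gained. Where 2 marks were gained it went from 22.3% to 61.9% (58.5 to 65.1), and where 3 were gained from 4 of 30 regions to 24 of 30 (80.0%, 61.4 to 92.3). Over all joined regions the share went from 37.3% to 43.9%, and in regions without a change from 50.0% to 55.2%. Where 1 mark was lost the share went from 24.0% to 20.8%, and where 2 were lost from 35.6% to 28.5%. Regions with more gains were wider, with median widths of 1416, 1776 and 2500 bases, and the part of width in these shares was not tested.

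**Figure D5:**
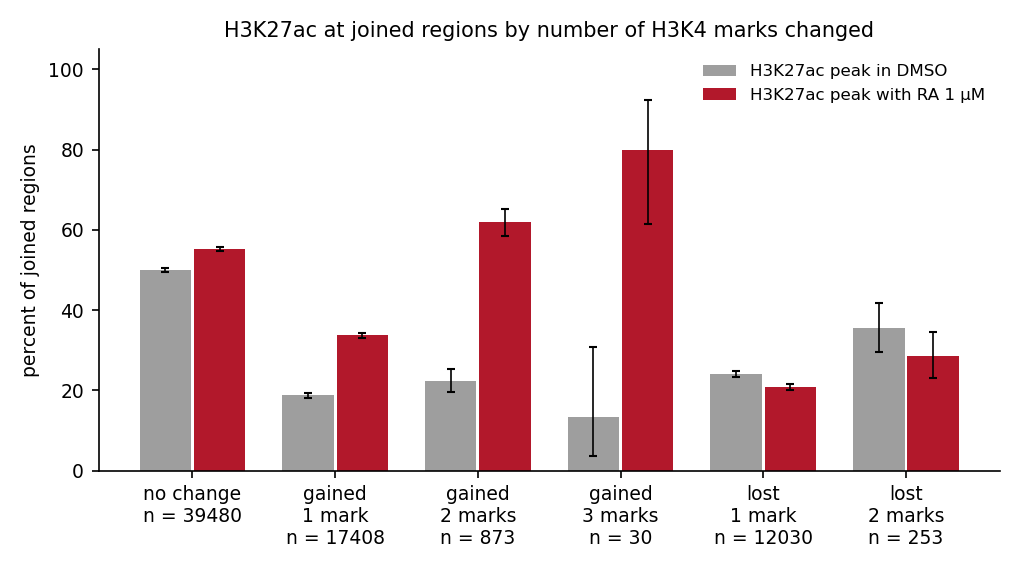
Percent of joined regions with an H3K27ac peak (vertical axis) in DMSO and with RA 1 µM, by the number of H3K4 marks gained or lost; bars are shares in 1 library and error bars are 95% exact binomial intervals. With RA the share is 33.7%, 61.9% and 80.0% for gains in 1, 2 and 3 marks.

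The H3K27ac shares differed by which marks were gained. Where H3K4me1 and H3K4me2 were gained together the share went from 12.9% to 63.2% (58.3 to 67.8). Where H3K4me2 and H3K4me3 were gained together it went from 50.9% to 77.3%, and where H3K4me1 and H3K4me3 were gained together from 1.10% to 35.7%. The 2620 regions that gained H3K4me3 with no other mark in either condition had H3K27ac in 1.37% in DMSO and 2.98% with RA. These low shares were not particular to the gain. The 1098 regions that held H3K4me3 with no other mark had H3K27ac in 4.64% in DMSO and 5.37% with RA. The 475 regions that lost H3K4me3 with no other mark had it in 2.95% and 1.68%.

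LSD1 and GFI1, mapped before any RA, were rare both at regions new with RA and at regions that lost every mark. The LSD1 list of DMSO holds no score below 234, so weaker sites are not in it. LSD1 was called in DMSO in 0.482% (0.369 to 0.619) of the 12646 gaining regions that carried no H3K4 mark in DMSO. In the 8655 regions that had marks in DMSO and none with RA, LSD1 was called in 1.47% and GFI1 in 5.63%. LSD1 was called in 17.5% of gaining regions with a held mark, in 21.9% of regions without a change and in 15.1% of all joined regions. GFI1, mapped in untreated cells, was called in 3.42% of the gaining regions without a mark in DMSO, in 22.0% of those with a held mark, in 25.6% of regions without a change and in 18.8% of all joined regions. At the 30 regions that gained all 3 marks, LSD1 had 0 peaks, which allows up to 11.6%, and GFI1 had 2. At the 79 regions that lost H3K4me2 and H3K4me3 together, LSD1 had a peak in 32 (40.5%, 29.6 to 52.1) and GFI1 also in 32. These shares were not particular to the loss: the 15236 regions that held all 3 marks had LSD1 in 43.2% and GFI1 in 42.6%. The regions of the 2 marks' joint gain had LSD1 in 13.6% and GFI1 in 20.1% of 273. The part of region width in these differences was not tested.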

How the data were processed

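ChIP-seq of H3K4me1, H3K4me2 and H3K4me3 in NB4 cells, with 1 library per mark and condition, was used as peak lists. Per the submitters' processing notes, the build was hg18, and MACS 1.4.1, Bowtie 1.0.1, FastQC 0.10.0 and 0.11.5, CASAVA 1.8 and bcl2fastq 2 were used, in roles that are not stated. Each deposited list has position, peak name and a score, which the authors' peak caller gave per peak on a log scale of its p-value, from 50 upward and piling up at 3100, with some up to 3233.06, so many strong peaks tie. Lists were called per library, as the deposited file of each sample shows.

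Overlaps of 1 base or more, joined regions and bases per set of marks were computed with Python 3.11.15, NumPy 2.4.6, pandas 2.3.3 and SciPy 1.17.1, on named chromosomes only. A joined region merges overlapping peaks of the 6 lists, so a mark counts as held where any of its peaks lies in the region in both conditions. Regions named in the text rank first by the lowest, over the changed marks, of the highest score of each; ties follow position, and not every ranked region is printed. The code was tested on simulated lists with planted gains and losses. The members and lists were chosen with earlier results of these data known. The alternatives held all lists to scores of at least 100, or set a threshold of 100 for the changed peak alone, cut the lists to equal length, shrank peaks to 500 bases around each side of the centre, joined peaks within 1 kb or asked for a 50% reciprocal overlap. The requirement on the MC_2580 list, the counts of 3-mark regions and the widths under alternatives, and the window on chromosome 10 were added after seeing the data. Regions prone to spurious signal were kept.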

Additional observations from a re-analysis of the deposited data

How the results depend on the processing

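The log2 ratio of gained to lost peaks stayed positive for H3K4me3 under all alternatives run and changed sign for the other marks. With a minimum score of 100 in every list it was -0.012 for H3K4me1, 1.04 for H3K4me2 and 3.19 for H3K4me3. With the threshold on the changed peak alone it was 0.36, 1.15 and 3.78. With lists of equal length it was -0.86, -0.38 and 0.47, where by construction the same number of peaks stands on both sides. With peaks shrunk to 500 bases around each side of the centre it was 0.57, 0.42 and 1.27, and with a 50% reciprocal overlap 0.57, 0.47 and 1.17. With joining within 1 kb it was 0.26 for H3K4me1 and 0.32 for H3K4me2. With the MC_2580 list required to match DMSO it was 0.85, 0.46 and 1.28.

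Gains in 2 or 3 marks were 3.35% of gaining regions with the threshold on the changed peak, 4.01% at equal length, 6.03% with shrunken peaks and 3.97% with the MC_2580 requirement. Losses in 2 or 3 marks were 1.46% of losing regions at the minimum score of 100, 0.430% with the threshold on the changed peak, 3.09% at equal length and 3.26% with shrunken peaks. Regions that gained all 3 marks numbered 11 with the threshold on the changed peak, 16 at equal length, 72 with shrunken peaks and 18 with the MC_2580 requirement. Regions that lost all 3 numbered 3 at equal length and 13 with shrunken peaks, so their count of 0 depends on these settings. Matched pairs narrower with RA were 79.0% (H3K4me1) and 66.5% (H3K4me2) at the minimum score of 100, and 77.6% (H3K4me1) and 15.8% (H3K4me3) at equal length. The cause of these shifts was not tested. No paired analysis was possible because each group had 1 library.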
